A study of Homo sapiens with 50 samples.

Results

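The genes described here are the 37 genes carried by the human mitochondrial genome, chosen as the rows of chromosome MT whose symbol starts with MT-, out of 57905 genes in the deposited tables. They comprise 13 protein-coding genes, 2 rRNA genes and 22 tRNA genes. Of the protein-coding genes, 7 encode subunits of complex I (MT-ND1 to MT-ND6 and MT-ND4L), 1 encodes a subunit of complex III (MT-CYB), 3 encode subunits of complex IV (MT-CO1, MT-CO2, MT-CO3) and 2 encode subunits of complex V (MT-ATP6, MT-ATP8). The rule itself uses no measured value. The level of each gene was followed through 50 RNA-seq libraries of H1 cells, an established human embryonic stem cell line of wild-type genotype, in 25 groups of 2 libraries.

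All differentiating groups came from cells induced towards mesendoderm, the precursor of mesoderm and endoderm. The control group differentiated spontaneously, and further groups received HCl, NaHCO3, IWP2, IWP2 with NaHCO3, or IWP2 with NaHCO3 and 2-DG. Each of these 6 treatments was sampled on days 3, 5, 7 and 11, and undifferentiated cells were sampled on day 0. HCl acidifies a culture medium and NaHCO3 (bicarbonate) makes it more alkaline. IWP2 blocks WNT secretion and is used to drive mesoderm into heart muscle cells, and 2-DG (2-deoxyglucose) inhibits glycolysis. The comparisons address how a shift in pH changes spontaneous or WNT inhibitor-driven differentiation. The labels name 1 cell line and do not state that the 2 libraries of a group came from separate cultures, so the p-values measure only the spread between these libraries, which may be technical.

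Mitochondrial DNA is a small circular genome that is transcribed as long transcripts covering almost a whole strand, by the RNA polymerase POLRMT with the factors TFAM and TFB2M. The tRNAs lie between the larger genes, and excising them frees the rRNAs and mRNAs, so the separate genes share transcription starts but differ in RNA stability. The proteins they encode are core subunits of the respiratory chain and of ATP synthase, which are built together with nuclear-encoded subunits. Heart muscle cells are known for a high mitochondrial content.

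Gene models bear on what each row of counts can hold. MT-ATP8 and MT-ATP6 share 46 bases in different reading frames, and MT-ND4L and MT-ND4 share 7 bases, so a read lying there overlaps both genes, and how the counting treated such reads is not given in the sources used here. The shared bases are in capitals in the first pair of sequences below. MT-TP, the proline tRNA gene on the minus strand at MT:15956-16023, is shown because it was the single tRNA gene with more than a handful of counts. The ends of MT-ND1, MT-CO3 and MT-CYB are shown because the results below single out these mRNAs. Their capitals are the bases after the last whole codon, which are an incomplete stop codon completed by the poly(A) tail.
MT-ATP8/MT-ATP6 overlap: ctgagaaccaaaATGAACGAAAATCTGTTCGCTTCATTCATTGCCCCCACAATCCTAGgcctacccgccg
MT-ND4L/MT-ND4 overlap: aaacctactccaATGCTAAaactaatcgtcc
MT-TP: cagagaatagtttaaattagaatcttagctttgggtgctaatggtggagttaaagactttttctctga
MT-ND1 last bases: tccagcattccccctcaaaccTA
MT-CO3 last bases: tccatctattgatgagggtctT
MT-CYB last bases: aacaaaatactcaaatgggccT
The sequences are from GENCODE 29 transcripts, in which all 37 genes have the identifiers, coordinates, strand and length of the deposited tables. Each is written 5′ to 3′ on its gene's own strand, and the overlaps lie on the plus strand at MT:8515-8584 and MT:10748-10778.

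The libraries held between 14090004 and 22796553 gene counts. All tests were run within 1 of the 2 deposited tables (days 3 and 5, or days 0, 7 and 11), with edgeR's quasi-likelihood test and Benjamini-Hochberg adjustment over 17286 and 18451 genes. The word called is kept for genes that combined an adjusted p below 0.05 with a change of 1 or more log2 units in either direction. A second count took all genes with an adjusted p below 0.05. With 17 and 18 members past the filter on low values, all 13 protein-coding and both rRNA genes were tested in both tables. The median log2 fold change over all tested genes lay between -0.02 and 0.04 in the comparisons of days 7 and 11, so a list median away from 0 is a shift against the other genes. Among the libraries, HCl replicate 1 and 2-DG replicate 1 of day 3 and NaHCO3 replicate 1 of day 7 stand apart from their partners in some of the genes described here, and the values without them are given at those genes. The HCl, NaHCO3 and IWP2 comparisons of a day share the same control libraries, and their values are set side by side only.

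Per unit of length, MT-CO1, the catalytic subunit of cytochrome c oxidase (MT:5904-7445), was the most abundant member, with a median of 9949 FPKM over the 50 libraries and a range from 5182 to 18837 FPKM. MT-CO3 followed with a median of 5129 FPKM and MT-CO2 with 4999 FPKM, and these neighbours do not differ beyond their spread over libraries. MT-RNR2, the large ribosomal subunit rRNA (MT:1671-3229), had a median of 3402 FPKM, and MT-RNR1, the small subunit rRNA (MT:648-1601), had 719.8 FPKM. By these medians, pooled over all groups, the complex IV subunits led. In single libraries MT-RNR2 reached 13432 FPKM, above the highest values of MT-CO3 (13028 FPKM) and MT-CO2 (9084 FPKM).

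MT-ND4 (2203 FPKM) and MT-ATP6 (1799 FPKM) led the remaining mRNAs. MT-ND3, MT-CYB, MT-ND4L, MT-ND1, MT-ND5 and MT-ND2 had medians from 1479 down to 1076 FPKM, with ranges that overlapped widely. MT-ND6, the single mRNA encoded on the minus strand (MT:14149-14673), had a median of 763.9 FPKM, and MT-ATP8 was lowest with 283.8 FPKM.

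**Figure D1:**
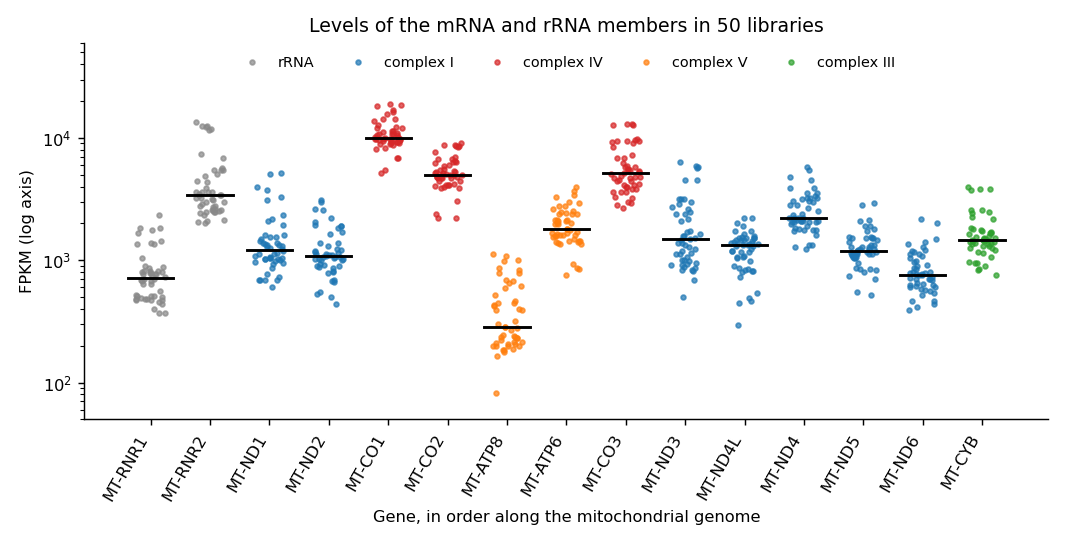
FPKM (log axis) of the 13 mRNA and 2 rRNA genes in genome order, with 1 point per library (50 libraries) and a bar at the median. The complex IV genes MT-CO1, MT-CO2 and MT-CO3 are the highest mRNAs, and MT-ATP8 is the lowest with a median of 283.8 FPKM.

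The tRNA genes were almost absent from the counts. In all 50 libraries 18 of the 22 stood at 0, which allows at most 0.213 CPM in the shallowest library (from a limit of 3 counts, counting error only). MT-TP had 320 to 920 counts on days 3 and 5 and 1319 to 4808 counts on days 0, 7 and 11, where day and deposited table cannot be told apart. The other 3 tRNA genes seen (MT-TF, MT-TC and MT-TY) reached at most 7 counts, and all tRNA genes other than MT-TP summed to 52 counts over the 50 libraries. RNA-seq libraries in general hold few fragments as short as a tRNA. Many of the tRNA genes also abut a neighbouring gene, so a longer read overlaps both, and how the counting treated such reads is not given. The part of either in these counts was not tested. MT-TC was called in 2 comparisons with HCl on day 11 as the first group, on at most 7 counts, and no fold is given for it.

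Counts of the 13 protein-coding genes took 4.55% and 4.53% of all counts in the 2 day 0 libraries. In control libraries the share was 3.57% and 3.89% on day 3, 3.40% and 3.42% on day 5, 3.25% and 3.34% on day 7, and 3.20% and 3.29% on day 11. The control share was thus below that of undifferentiated cells in every library, and it lay between 3.20% and 3.89% on days 3 to 11. Between day 0 and days 3 and 5, day and deposited table cannot be told apart. Wilson 95% intervals are narrow at this depth, with a half-width of at most 0.0132 percentage points, and they cover counting error only. Shares carry no test, since an exact permutation of 2 against 2 libraries cannot give a two-sided p below 0.333.

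On day 3 the protein-coding shares of all treatments lay between 2.95% and 4.09%, and on day 5 between 2.82% and 3.71%. HCl libraries of day 5 held 3.21% and 3.35%, NaHCO3 libraries 2.96% and 2.95%, and IWP2 with NaHCO3 3.10% and 3.09%. With 2-DG added the day 5 share was 2.82% and 2.95%. All of these lay below the control of that day, and IWP2 libraries lay above it, at 3.67% and 3.71%. The treatments lay further apart on day 7. HCl libraries then held 3.91% and 4.13%, IWP2 libraries 5.23% and 5.03%, and NaHCO3 libraries 2.11% and 2.22%. IWP2 with NaHCO3 held 3.33% and 3.44%, close to the control, and with 2-DG added the share was 5.05% and 5.23%.

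The separation was wider on day 11. HCl libraries held 7.74% and 7.60%, or 7.67% ± 0.0988 (SD, n = 2), against 3.24% ± 0.0624 (SD, n = 2) in the control. With IWP2 the share was 5.60% and 5.84%, and with IWP2, NaHCO3 and 2-DG it was 7.14% and 6.87%. NaHCO3 libraries held 1.90% and 1.78%, the lowest of the 50, and IWP2 with NaHCO3 held 3.21% and 3.20%. The HCl, IWP2, NaHCO3 and control libraries of day 11 did not overlap with each other.

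**Figure D2:**
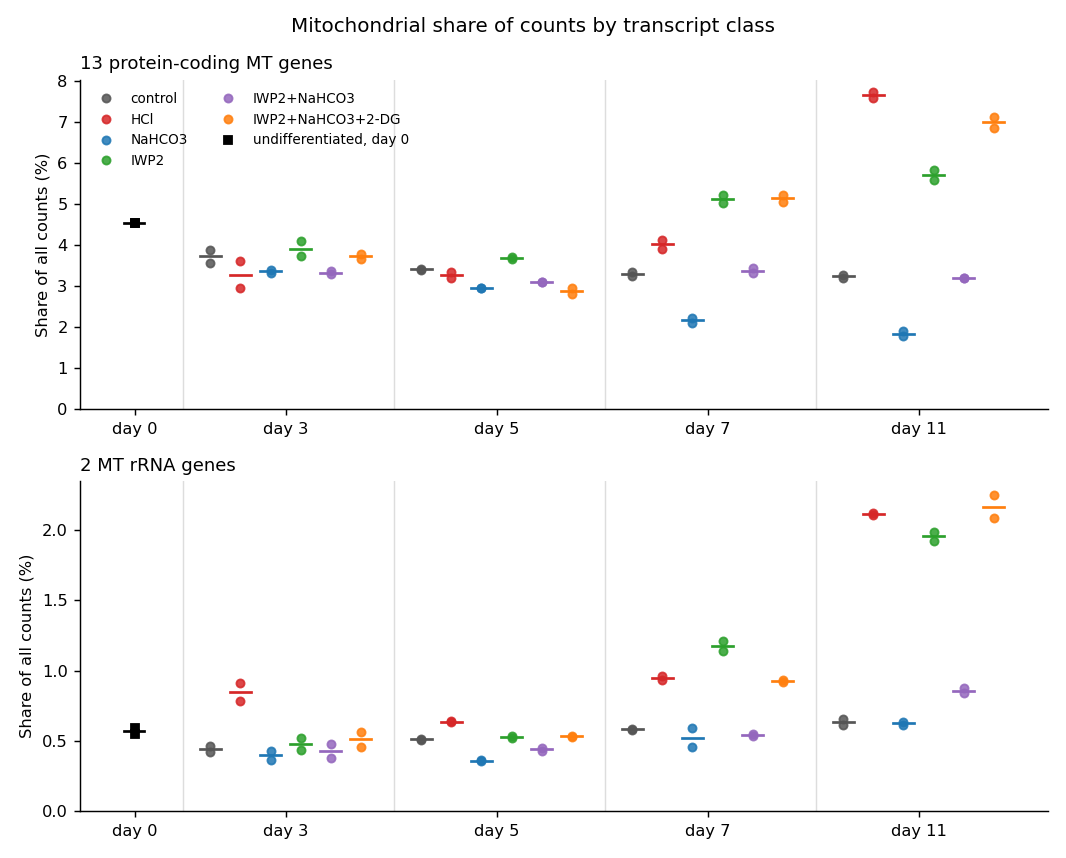
Share of all counts (%) taken by the 13 protein-coding genes (upper panel) and the 2 rRNA genes (lower panel), by day and treatment; points are libraries and bars are means of 2. On day 11 the HCl libraries reach 7.74% and 7.60% for the protein-coding genes while the NaHCO3 libraries lie at 1.90% and 1.78%.

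The groups also differed in cell type markers, summed as CPM, counts scaled to a common library total. The 10 pluripotency markers summed to 9098 and 9037 CPM on day 0 and to between 92.8 and 249 CPM on day 11. The 16 cardiomyocyte markers summed to 27594 and 28151 CPM with HCl on day 11, to 19566 and 21213 with IWP2, and to 35060 and 31986 with IWP2, NaHCO3 and 2-DG. The control held 3718 and 4649 CPM, IWP2 with NaHCO3 held 1966 and 1952, and NaHCO3 held 666 and 737. Against the control, 15 of the 16 were called higher and 1 lower with HCl, all 16 higher with IWP2, and 14 lower with NaHCO3. NaHCO3 added to IWP2 called all 16 lower, and 2-DG added to these called all 16 higher. Of all genes, 8.37%, 6.24%, 10.2%, 8.7% and 9.32% were called in the same direction, in the same order. Hepatic markers ran the other way on day 11, from 12181 to 19470 CPM in the control, NaHCO3 and IWP2 with NaHCO3 libraries and from 540 to 1352 CPM in the other 3 groups, and all 12 were called lower with HCl and with IWP2 than in the control, beside 12.7% and 8.68% of all genes. Matrix fibroblast markers were highest with NaHCO3, at 51198 and 53704 CPM on day 11. The part of cell composition in the mitochondrial shares was not tested. In these bulk libraries a change in the share of a cell type and a change in RNA per cell cannot be told apart.

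On days 3 and 5 no protein-coding member was called in any of the 10 treatment comparisons. The shares of all genes called in either direction on day 3 were 10.6% for HCl, 4.1% for NaHCO3 and 0.613% for IWP2 against the control. They were 3.2% for IWP2 with NaHCO3 against IWP2 and 3.56% for the addition of 2-DG to these. On day 5 the same shares were 20%, 6.42%, 6.79%, 5.84% and 16.4%, in the same order. DESeq2 and limma called none either. At an unadjusted p below 0.05, edgeR gave 2, 0, 0, 3 and 8 of the 13 on day 3 and 5, 3, 1, 4 and 1 on day 5. The shares of all genes at that threshold were 39.4%, 24.9%, 7.91%, 21% and 31.2% on day 3 and 48.4%, 26.6%, 25.5%, 24% and 46.7% on day 5.

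MT-CYB, the cytochrome b subunit of complex III (MT:14747-15887), was the mRNA lowered by HCl on both early days. On day 3 it stood at 898 and 1071 FPKM with HCl against 1484 and 1656 FPKM in the control. MT-CYB was the 1 protein-coding gene lower by adjusted p there, a count below the share of 14.9% over all genes. The difference from the control was -0.61 log2 units (SE 0.108, adjusted p = 0.000247). Without HCl replicate 1 it was -0.48 and still passed. On day 5 it was at 850 and 945 FPKM against 1308 FPKM in both control libraries (log2 -0.50, SE 0.108, adjusted p = 0.000808). The HCl and control libraries did not overlap on either day.

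With HCl on day 5, 3 members rose by adjusted p alone, beside 20.8% of all genes, and 2 fell, beside 21.1%. The first count was near its share and the second below it. MT-ND2 (log2 0.47), MT-ND4 (0.50) and MT-ND6 (0.55) were higher, while MT-CO3 (-0.53) and MT-CYB were lower. MT-CO3 stood at 2675 and 2918 FPKM with HCl against 4216 and 4099 FPKM in the control. Leaving out any 1 of the 4 libraries left 2 or 3 of these 5 genes past the threshold.

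MT-ND1, a complex I subunit beside the rRNA genes (MT:3307-4262), was at 733 and 690 FPKM with NaHCO3 on day 5 against 1122 and 1037 FPKM in the control. It was the 1 gene lower by adjusted p (log2 -0.56, adjusted p = 0.00461), a count near the share of 7.98% over all genes. The gene missed the adjusted p threshold without NaHCO3 replicate 2 (log2 -0.52) or control replicate 1 (-0.51), with changes of about the same size. MT-ND1 (log2 -0.50) and MT-CO1 (-0.36) were lower with IWP2 and NaHCO3 than with IWP2 on day 5, beside 5.5% of all genes, and neither passed when any 1 library was left out, at log2 -0.48 to -0.53 for MT-ND1 and -0.35 to -0.38 for MT-CO1. With 2-DG on day 3, 5 members were higher by adjusted p (MT-ND1, MT-ND2, MT-CO2, MT-CO3 and MT-CYB, log2 0.41 to 0.58), beside 9.68% of all genes. That count ranged from 0 to 11 when 1 library was left out, and each of the 4 libraries moved it. Without 2-DG replicate 2, 2 of the 13 passed the fold limit as well. In 2-DG replicate 1 of day 3, MT-CO3 stood at 7243 FPKM against 4737 FPKM in replicate 2, so these libraries stand apart, and without replicate 1 its change was log2 0.08 (adjusted p = 0.641).

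On day 7 HCl called no protein-coding member, beside 6.36% of all genes higher. By adjusted p alone 11 of the 13 rose, beside 23.1% of all genes, with a median log2 fold change of 0.52 over the 13. MT-ND6 (log2 0.75), MT-ND4L (0.72) and MT-ND4 (0.69) were among the largest, and MT-ND1 (0.05, adjusted p = 0.617) and MT-CYB (0.01, adjusted p = 0.954) did not pass. MT-CYB stood at 1258 and 1400 FPKM with HCl against 1378 and 1362 FPKM in the control, so the groups overlap. The count of 11 fell to between 7 and 10 with 1 library left out, and HCl replicate 2 and control replicate 1 moved it by more than 1.5 times.

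On day 11 HCl called all 13 protein-coding members higher, beside 8.37% of all genes. The median log2 fold change was 1.41. MT-ND1 had 5064 and 5159 FPKM with HCl against 1595 and 1552 FPKM in the control, the largest change among the mRNAs (log2 1.78, SE 0.0718, adjusted p = 4.23e-19). MT-CO1 had 18837 and 18490 FPKM against 8701 and 8875 FPKM, the smallest change (log2 1.17, SE 0.0627, adjusted p = 2.83e-16).

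MT-CYB had 3844 and 3720 FPKM with HCl on day 11 against 1474 and 1578 FPKM in the control (log2 1.39). MT-ND6, from the opposite strand, had 2158 and 1997 FPKM against 730 and 775 FPKM (log2 1.55). No HCl library overlapped with a control library in any of the 13 genes. That count carries little weight with 2 against 2 libraries, and the share over all genes was not counted. With NaHCO3 on day 5, 12 of the 13 did not overlap with the control either, although 1 passed by adjusted p. Since all 13 genes were called higher with HCl on day 11, that increase reached every complex and genes annotated on both strands. Whether counting used the strand is not given, so the strand of the RNA counted for MT-ND6 is not known.

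The HCl effect was larger on day 11 than on day 7 for all 13 mRNAs by the test of the difference itself at adjusted p below 0.05, beside 19.4% of all genes. With a log2 difference of at least 1, 4 mRNAs and both rRNAs were called, beside 7.13%. These mRNAs were MT-ND1 (log2 1.74), MT-CYB (1.38), MT-ND2 (1.19) and MT-CO3 (1.10). MT-ND1 and MT-CYB, which had not passed on day 7, differed most.

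NaHCO3 lowered the protein-coding members on day 7. All 13 were lower by adjusted p, beside 20% of all genes, with a median log2 fold change of -0.54. MT-ATP8 (log2 -1.55), MT-ND2 (-1.09), MT-ND4L (-1.05) and MT-ND1 (-1.03) were called, beside 5.15% of all genes. MT-ND1 stood at 686 and 683 FPKM against 1535 and 1502 FPKM in the control. MT-ATP8 stood at 82.1 and 166 FPKM with NaHCO3 against 396 and 395 FPKM, so its 2 NaHCO3 libraries differ widely. Without NaHCO3 replicate 1, the lower of them, 2 genes were called, and MT-ATP8 was at log2 -1.15.

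On day 11 NaHCO3 lowered 12 of the 13 by adjusted p, beside 26.5% of all genes, with a median of -0.66. MT-ND1 was the 1 member called, beside 10.2% of all genes. It stood at 685 and 607 FPKM against 1595 and 1552 FPKM (log2 -1.09, SE 0.0708, adjusted p = 5.63e-14). MT-ND3 did not pass, at 1460 and 1377 FPKM against 2080 and 2190 FPKM (log2 -0.39, adjusted p = 0.154). MT-ND2 (-0.96) and MT-ND5 (-0.94) lay just inside the fold limit, and scaling by library totals alone brought the count called to 3. Leaving out NaHCO3 replicate 1 or control replicate 1 brought it to 2, with MT-ND2 added.

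IWP2 raised all 13 on day 7 by adjusted p, beside 23.3% of all genes, with a median of 0.83, and called none, beside 8.49%. MT-ND6 (log2 0.97), MT-ATP6 (0.95) and MT-ND3 (0.91) were largest and MT-CYB (0.47) smallest. On day 11 all 13 were again higher, beside 22.1% of all genes, with a median of 0.74. MT-ND1 and MT-ND3 were called, beside 6.24%. MT-ND1 had 3129 and 3284 FPKM with IWP2 against 1595 and 1552 FPKM in the control (log2 1.05), and it fell inside the fold limit (0.99) without IWP2 replicate 2.

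Adding NaHCO3 to IWP2 lowered all 13 on day 7 by adjusted p, beside 24.0% of all genes, with a median of -0.73 and none called, beside 8.29%. The lone call with 1 library left out was MT-ND3 (log2 -1.001), without IWP2 replicate 2. On day 11 all 13 were lower, beside 23.9% of all genes, with a median of -0.76. MT-ND1 (log2 -1.28) and MT-ND5 (-1.03) were called, beside 8.7%. MT-ND1 had 1284 and 1239 FPKM with IWP2 and NaHCO3, below both IWP2 libraries and below both control libraries. MT-ND5 was not called without IWP2 replicate 2 (log2 -0.96), and 3 genes were called without IWP2 replicate 1 or without IWP2 with NaHCO3 replicate 2.

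Adding 2-DG to IWP2 and NaHCO3 raised all 13 on day 7 by adjusted p, beside 25% of all genes, with a median of 0.78. MT-ND4L (log2 1.16) and MT-ND3 (1.04) were called, beside 7.1% of all genes, and MT-ND3 fell just inside the fold limit without IWP2 with NaHCO3 replicate 1. Without replicate 2 of that group 3 genes were called, and scaling from nuclear genes or by library totals called 1. On day 11 the addition called 11 of the 13 higher, beside 9.32%, and all 13 passed by adjusted p, beside 24.9%. The median was 1.30.

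MT-ND1 rose most with 2-DG on day 11, from 1284 and 1239 FPKM to 3939 and 3717 FPKM (log2 1.62, adjusted p = 1.69e-18). MT-CO2 (log2 0.85) and MT-CO3 (0.93) stayed inside the fold limit, and MT-ATP8 joined them at 0.92 without 2-DG replicate 1. The 2-DG effect was larger on day 11 than on day 7 for 8 of the 13 by adjusted p of the difference, beside 13.8% of all genes, and MT-ND1 was called (log2 1.00), beside 4.55%, with values from 0.93 to 1.11 when 1 library was left out, 5 of 8 of them called. Among the 13, MT-ND1 thus had the largest change on day 11 in all comparisons but that of IWP2 with the control.

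**Figure D3:**
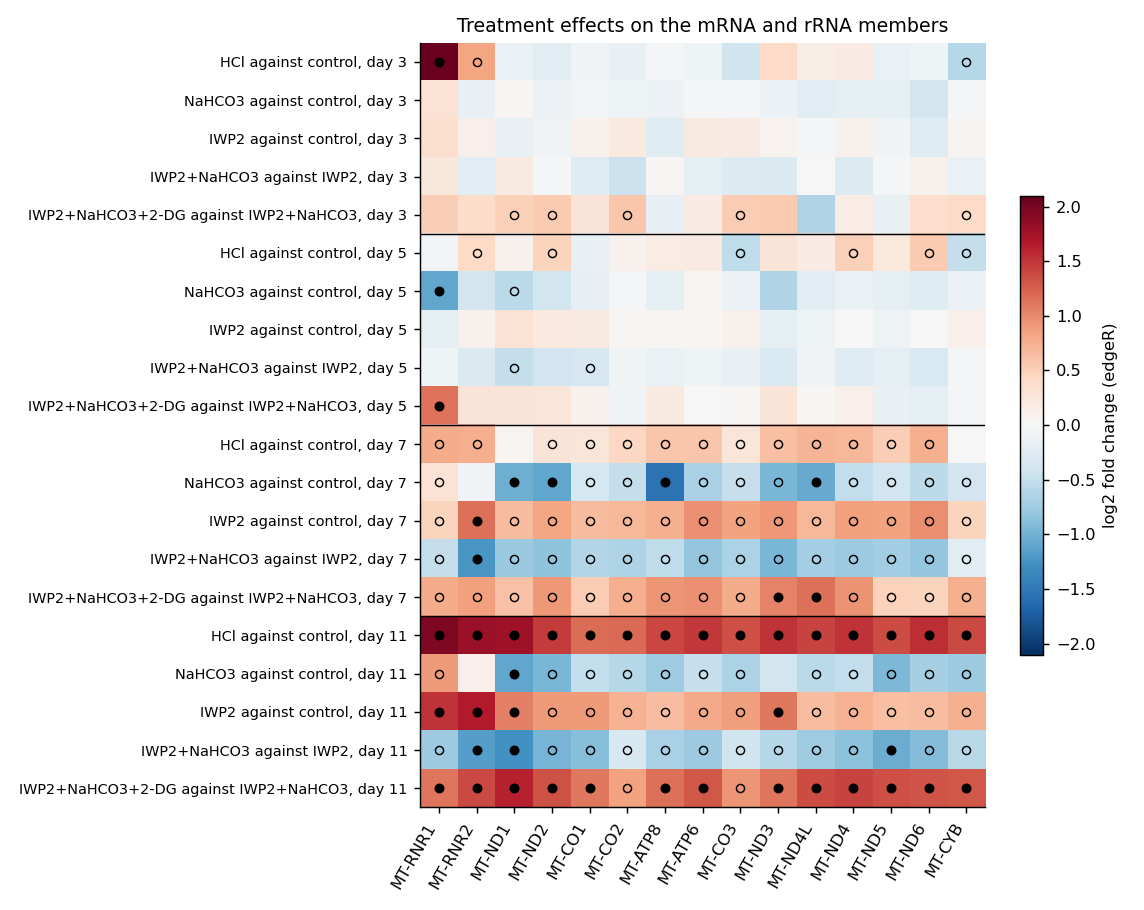
Log2 fold changes (colour) of the 15 mRNA and rRNA genes in genome order for the 20 treatment comparisons, from edgeR. Filled circles mark called genes and open circles an adjusted p below 0.05 with a smaller change; the row of HCl on day 11 is filled throughout.

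In the treatment comparisons of days 7 and 11 the rRNA median changed in the direction of the mRNA median, except with NaHCO3 against the control. There the medians were log2 0.12 (rRNA) and -0.54 (mRNA) on day 7 and 0.50 and -0.66 on day 11. The day 7 rRNA median lies between 2 genes of opposite sign, MT-RNR1 (log2 0.30) and MT-RNR2 (-0.07), and neither was called. Without NaHCO3 replicate 2, MT-RNR1 was at 0.16. The day 7 rRNA share of all counts was 0.453% and 0.591% with NaHCO3 and 0.579% and 0.585% in the control, so no rise of the rRNAs can be read there. The rRNA share of all counts was 0.549% and 0.588% on day 0, and in the control it rose no further than 0.610% and 0.657% on day 11. It reached 2.11% and 2.12% with HCl, 1.93% and 1.99% with IWP2, and 2.25% and 2.08% with IWP2, NaHCO3 and 2-DG on day 11. NaHCO3 libraries held 0.637% and 0.611%, which overlaps with the control although the mRNA share there was lower.

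The ratio of rRNA to mRNA counts therefore differed between groups. It was 12.1 and 12.98 rRNA counts per 100 protein-coding counts on day 0 and 19.1 and 19.99 in the day 11 control. On day 11 it stood at 33.5 and 34.4 with NaHCO3, 34.4 and 34.0 with IWP2, and 27.2 and 27.9 with HCl. NaHCO3 and IWP2 libraries were thus alike in this ratio while their mRNA shares lay at opposite sides of the control.

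MT-RNR2 and MT-RNR1 were both called higher with HCl on day 11 (log2 1.81 and 1.97) and with IWP2 (1.66 and 1.52). The 2-DG addition raised them as well (log2 1.38 and 1.12). With NaHCO3 on day 11, MT-RNR1 stood at 822 and 801 FPKM against 483 and 515 FPKM in the control. It passed by adjusted p (log2 0.90, adjusted p = 9.15e-12) but was not called. The share of all genes called higher in this comparison was 6.7%, which also required the fold limit and so is not at the same threshold. MT-RNR2 was at 3582 and 3431 FPKM against 3615 and 3897 FPKM (log2 0.10, adjusted p = 0.323), so its libraries lay just below the control in FPKM, while the log2 value is after edgeR's scaling.

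On day 7 MT-RNR2 rose with IWP2 from 3402 and 3441 FPKM to 7334 and 6904 FPKM (log2 1.15, called), and with NaHCO3 added it was at 3148 and 3201 FPKM (log2 -1.22, called). MT-RNR1 changed less in these comparisons, by log2 0.47 and -0.50. The ratio of MT-RNR2 to MT-RNR1 counts was 17.6 and 17.7 with IWP2 against 11.0 in both control libraries. On day 11 NaHCO3 added to IWP2 lowered MT-RNR2 by a called amount (log2 -1.15) and MT-RNR1 by log2 -0.76.

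The NaHCO3 effect on the rRNAs depended on IWP2 on days 7 and 11. Neither rRNA passed the test of this difference by adjusted p on day 3 (log2 -0.08 and -0.06) or day 5 (0.07 and 1.00). On day 11 the test of the difference called MT-RNR1 (log2 -1.65, adjusted p = 5.48e-14) and MT-RNR2 (-1.25), beside 6.33% of all genes lower. On day 7 it called MT-RNR2 (-1.15), beside 6.78% lower, and MT-ATP8 (1.02), beside 7.85% higher. The MT-ATP8 value rests on the NaHCO3 libraries that differ widely, and without NaHCO3 replicate 1 it was 0.61. MT-RNR2 was at -0.96 on day 7 without NaHCO3 replicate 2. No other mRNA was called in these differences.

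On the early days 3 treatment comparisons called MT-RNR1. With HCl on day 3 it stood at 2329 and 1037 FPKM against 398 and 440 FPKM in the control (log2 2.07, SE 0.269, adjusted p = 8.21e-06), beside 5.77% of all genes called higher. MT-RNR2 was at 4415 and 4375 FPKM against 2470 and 2712 FPKM (log2 0.83). HCl replicate 1 stands apart: its summed non-polyadenylated transcripts (10 genes such as RMRP, RN7SK and RPPH1) were at 15104 CPM against 753 CPM in replicate 2 and 341 and 404 CPM in the control. Without replicate 1, MT-RNR1 was still called, with log2 1.38. The part of RNA selection in this difference was not tested.

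On day 5 MT-RNR1 was lower with NaHCO3, at 373 FPKM in both libraries against 773 and 861 FPKM (log2 -1.09, called), beside 3.67% of all genes lower, and it missed the adjusted p threshold without either NaHCO3 library, while the change stayed at -1.09 log2 units. With 2-DG it was at 1346 and 1351 FPKM against 671 and 695 FPKM (log2 1.14, called), beside 6.84% of all genes higher. It fell inside the fold limit, at 0.98, with library totals as the scaling. The HCl effect on MT-RNR1 differed between days 5 and 3 by log2 -2.13, beside 7.92% of all genes, and by -1.43 without HCl replicate 1 of day 3 (called). The NaHCO3 effect differed by -1.39, beside 3.73%, and leaving out 1 library at a time kept it past the adjusted p threshold in 2 of 8 fits, at -1.30 to -1.46. Those 2 left out control replicate 2 of day 3 or control replicate 1 of day 5. The IWP2 effect on MT-RNR1 was larger on day 11 than on day 7 (log2 1.05), beside 1.27% of all genes, and was just under the fold limit (0.997) without control replicate 1 of day 11.

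MT-TP, the one tRNA gene with a measurable level, was at 3979 and 3980 FPKM with HCl on day 11 against 1114 and 1199 FPKM in the control (log2 1.87, called). IWP2 raised it on day 7 (log2 1.12) and day 11 (1.19), and 2-DG raised it on day 7 (1.54) and, below the fold limit, on day 11 (0.93, adjusted p = 5.01e-11). The 2-DG effect was smaller on day 11 than on day 7 (difference -0.62, adjusted p = 0.000134). NaHCO3 added to IWP2 lowered it by adjusted p on day 7 (log2 -0.9996) and day 11 (-0.96), both just short of the fold limit. The NaHCO3 effect with IWP2 was below that without IWP2 on both days (-1.17 and -1.12, called). Its FPKM values rest on a gene of 68 bases and are comparable between libraries, not with longer genes.

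The composition of the mRNA pool was described as the share of each complex in the counts of the 13 genes. Complex IV held 58.3% to 69.7% of these counts in the 50 libraries and complex I held 21.8% to 32.4%. In the control, complex I held 25.3% and 24.3% on day 5 and 28.6% and 27.8% on day 11. With HCl it held 31.7% and 32.3% on day 5 and 32.2% and 32.4% on day 11, above every control library. Complex IV moved the other way, to 61.4% and 60.6% with HCl on day 5 against 67.0% and 67.9% in the control.

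The MT-CYB share lay below the control with HCl through day 7. It was 3.47% and 3.38% on day 3 against 4.75% and 4.86% in the control, 3.03% and 3.22% on day 5 against 4.39% and 4.36%, and 3.67% and 3.87% on day 7 against 4.85% and 4.66%. On day 11 it was 5.67% and 5.59% against 5.26% and 5.48%, so the order had turned. IWP2 also stood below the control in this share on day 7, at 3.94% and 3.99%.

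**Figure D4:**
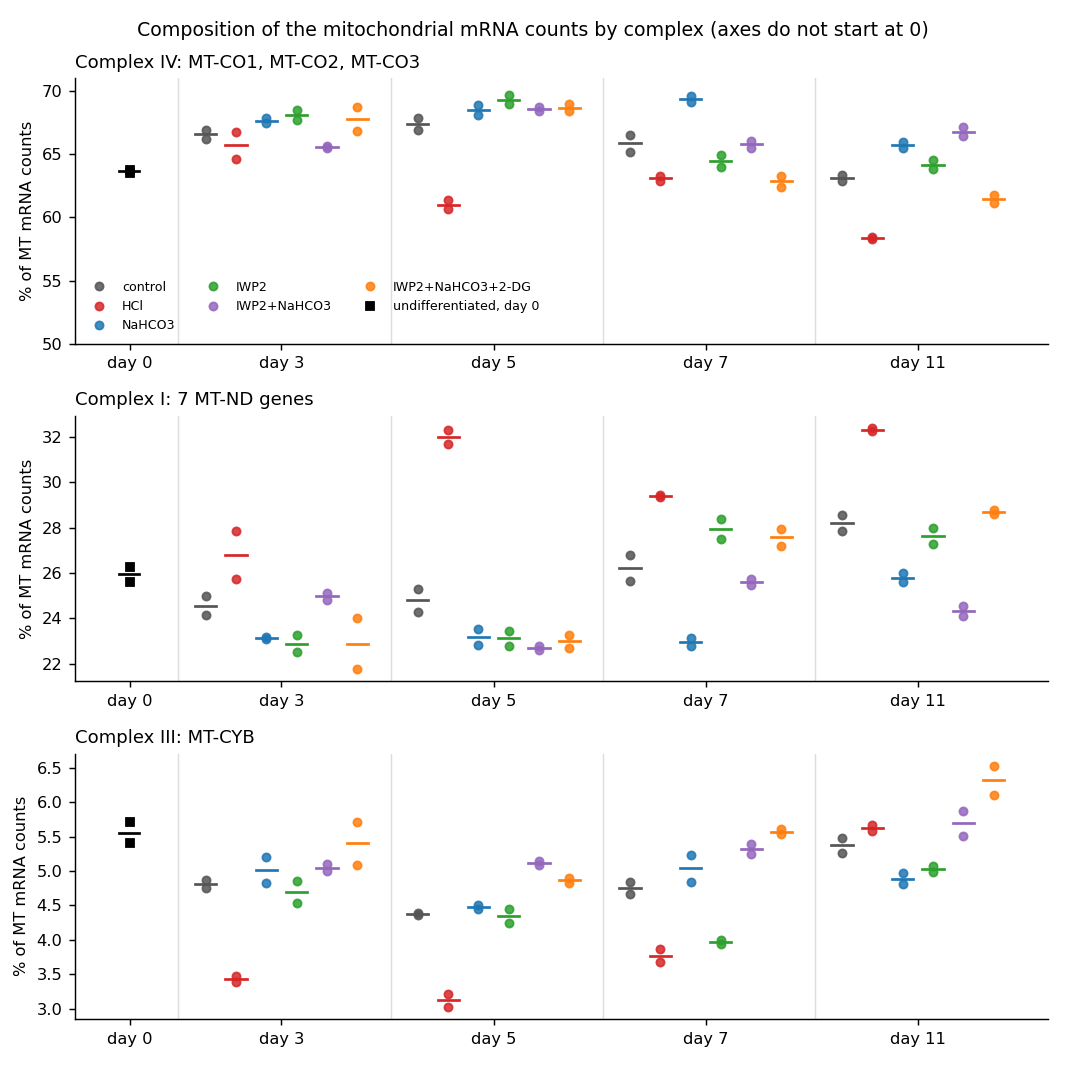
Share of the counts of the 13 protein-coding genes (%) held by complex IV, complex I and complex III (MT-CYB), by day and treatment; points are libraries, bars are means of 2, and the axes do not start at 0. With HCl complex I holds 31.7% and 32.3% on day 5 and MT-CYB lies below the control on days 3, 5 and 7.

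NaHCO3 on day 7 held the least complex I of that day, 23.1% and 22.8%, and the most complex IV, 69.1% and 69.6%. Complex V held 4.77% and 4.93% on day 0, 3.16% and 3.15% in the day 7 control and 2.54% and 2.75% with NaHCO3 on day 7. MT-ATP8 is the shortest mRNA, and the ratio of MT-ATP6 to MT-ATP8 FPKM was 6.23 to 12.9 on days 3 and 5 and 3.02 to 9.29 on days 0, 7 and 11. Day and deposited table cannot be told apart in this ratio.

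Undifferentiated cells had their own composition. MT-CO1 held 34.2% and 34.1% of the mRNA counts on day 0, the lowest shares of the 50 libraries, against 44.6% and 45.4% in the day 7 control. MT-CO2 was at 8615 and 8686 FPKM on day 0 against 3947 and 4181 FPKM in the day 7 control, and MT-CO3 was at 9511 and 9560 FPKM against 5096 and 5338 FPKM. Both were called lower in the control.

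In the day 7 control, 4 members were called lower than on day 0, beside 15.6% of all genes: MT-ATP8 (log2 -1.39), MT-CO2 (-1.26), MT-ATP6 (-1.24) and MT-CO3 (-1.04). By adjusted p 12 of the 13 were lower, beside 34.4% of all genes, and MT-ND1 was not (log2 0.13, adjusted p = 0.0985). NaHCO3 called 11 of the 13 lower than on day 0 on day 7, beside 19.9%, and 10 on day 11, beside 19.7%. HCl on day 11 called MT-ND1 (log2 2.03), MT-ND3 (1.26) and MT-ND6 (1.19) higher than on day 0, beside 22.4%, and 11 passed by adjusted p, beside 36.7%. MT-CO2 did not pass there (log2 -0.02, adjusted p = 0.869).

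Between days 7 and 11 the control changed little, with 2 of 13 members higher by adjusted p (MT-CYB, log2 0.22, and MT-ND5, 0.17), beside 19.7% of all genes. Under HCl all 13 rose by adjusted p between these days, beside 27.8%, and 7 were called, beside 11.1%. MT-ND1 led with 1434 and 1595 FPKM on day 7 and 5064 and 5159 FPKM on day 11 (log2 1.85), and MT-CYB followed (1.61). With IWP2, NaHCO3 and 2-DG 11 rose by adjusted p, beside 19.6%, and MT-ND3 (log2 1.02) was the 1 mRNA called, beside 5.63%.

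The complexes also hold nuclear-encoded subunits, of which 79 were tested on days 7 and 11 for complexes I to V. With HCl on day 11 mitochondrial and nuclear subunits rose together. The median log2 fold change was 1.51 for the mitochondrial and 0.89 for the nuclear subunits of complex I, 1.39 and 1.10 for complex III, 1.19 and 1.16 for complex IV, and 1.44 and 1.15 for complex V. Of the 79 nuclear subunits 43 were called higher and 2 lower, beside 8.37% and 12.7% of all genes.

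With IWP2 on day 7 the nuclear subunits moved further than the mitochondrial ones outside complex I. Complex IV had medians of 0.69 (mitochondrial) and 1.37 (nuclear), complex III 0.47 and 1.23, and complex V 0.85 and 1.36, with 0.85 and 0.84 in complex I. Of the 79 nuclear subunits 48 were called higher, and none of the 13 mitochondrial ones, beside 8.49% of all genes. On day 11 the IWP2 medians lay closer, at 0.87 and 0.94 in complex IV, and 20 nuclear subunits were called higher, beside 6.24%.

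With NaHCO3 on day 11 the medians of the 2 genomes had opposite signs. The mitochondrial medians were -0.70 (complex I), -0.75 (III), -0.60 (IV) and -0.62 (V), and the nuclear medians were 0.48, 0.60, 0.62 and 0.41. Of the 79 nuclear subunits 6 were called higher and 1 lower, beside 6.7% and 10.2% of all genes, so the count called higher was near the background. On day 7 both sets were lower with NaHCO3, with medians in complex IV of -0.49 (mitochondrial) and -0.46 (nuclear). The difference between the sets was not tested in any of these comparisons.

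**Figure D5:**
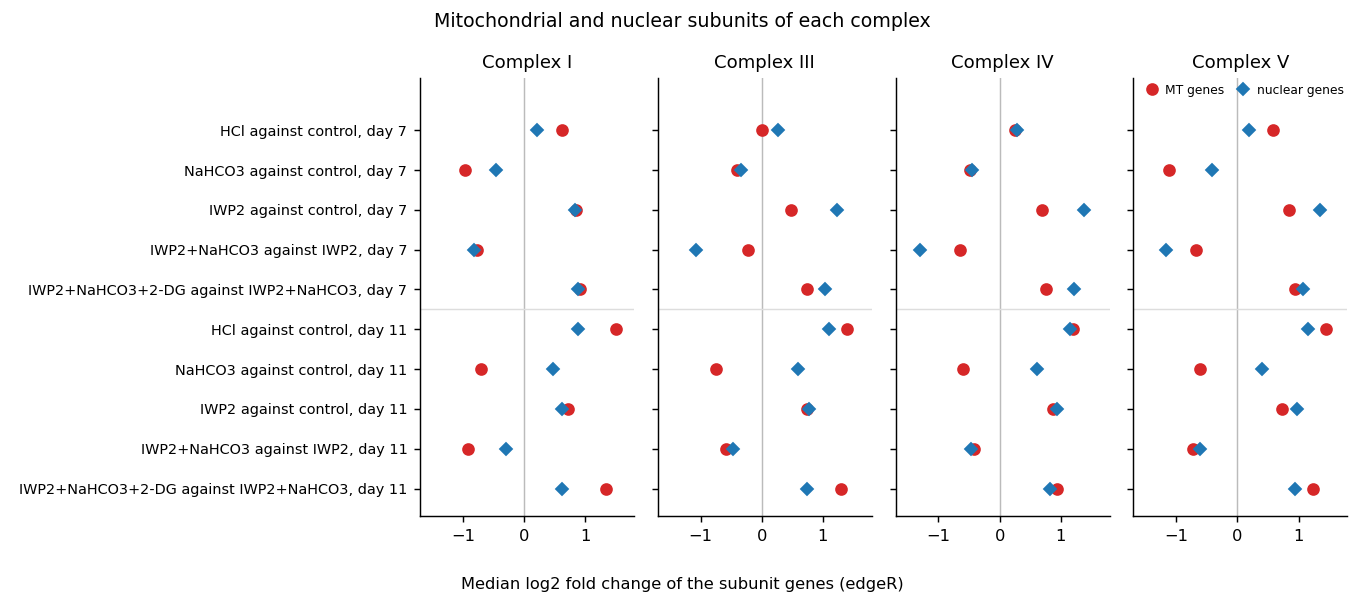
Median log2 fold change (edgeR) of the mitochondrial (circles) and nuclear (diamonds) subunit genes of complexes I, III, IV and V in the 10 treatment comparisons of days 7 and 11. With NaHCO3 on day 11 the circles lie below 0 (-0.60 to -0.75) and the diamonds above 0 (0.41 to 0.62).

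Lists of nuclear genes that transcribe and stabilise mitochondrial RNA had medians closer to 0 than the members. With 8.37% of all genes called higher by HCl on day 11, 1 of 8 transcription genes tested was called, MTERF2 (a mitochondrial termination factor family member, log2 1.39), and the list median was 0.26. TFAM, which packages and activates mitochondrial DNA, was at 14.0 FPKM ± 0.537 (SD, n = 2) against 9.59 FPKM ± 0.0141 (SD, n = 2), a log2 fold change of 0.63. POLRMT (0.26), TFB2M (0.26) and LRPPRC, which stabilises mitochondrial mRNAs (0.52), were not called. Of 22 genes of RNA processing and stability 1 was called, FASTKD1 (log2 1.59), a count near that share of all genes. The median of this list was 0.32.

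With NaHCO3 on day 11 the same lists had medians of -0.17 and -0.13. TFAM was at log2 -0.22, LRPPRC at -0.21 and SLIRP, the partner of LRPPRC, at 0.83. PNPT1, an RNA-degrading enzyme of mitochondria, was called lower (log2 -1.08). The 76 tested genes of the mitochondrial ribosome, which holds the rRNA members, had a median of 0.33 there and of 0.46 with HCl. Of these, 3 and 4 were called higher, counts not far below the shares of 6.7% and 8.37% over all genes.

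PPARGC1A, a coactivator that promotes mitochondrial biogenesis, changed by larger amounts. On day 11 it stood at 20.4 FPKM ± 0.820 (SD, n = 2) with HCl, 19.5 ± 1.39 with IWP2, 3.03 ± 0.453 in the control and 0.0850 ± 0.00707 with NaHCO3. It was called in all of these comparisons (log2 2.83, 2.71 and -4.88). ESRRA, a nuclear receptor that acts with it, rose with HCl (log2 1.43) and IWP2 (1.34) and did not pass with NaHCO3 (0.07, adjusted p = 0.613). Of the genes of mitochondrial DNA maintenance, POLG (-0.11), TWNK (-0.22) and SSBP1 (0.30) were not called with HCl on day 11, and SLC25A4, the muscle form of the ADP/ATP carrier, was (2.58).

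Nuclear copies of mitochondrial genes on chromosome 1 also received counts. MTND2P28, a copy of MT-ND2, had 438 to 3008 counts per library and MTATP6P1, a copy of MT-ATP6, had 839 to 6491. Reads could be divided between MT-ND2 or MT-ATP6 and these copies, so the levels of both members are uncertain to that extent.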

How the data were processed

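Counts per gene and FPKM values were measured by RNA-seq of total RNA in 50 libraries of H1 cells. Per the submitters' processing notes, the authors used cutadapt 1.9.1, HISAT2 2.0.1 and HTSeq 0.6.1 with the GRCh37 build to make the deposited counts. The deposited FPKM values are those counts per length and library total, and recomputing them matched within 0.005 FPKM. Whether counting used the strand is not given in the sources used here, so overlapping genes on opposite strands may share reads.

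The 2 tables (days 3 and 5, 24 libraries; days 0, 7 and 11, 26 libraries) were fitted separately in R 4.3.3 with edgeR 4.0.16 (TMM scaling, robust quasi-likelihood fit, 1 mean per group), and adjusted p-values are Benjamini-Hochberg over all genes tested. Genes needed at least 1 FPKM in at least 2 libraries. The biological coefficient of variation was 0.119 in the first table and 0.0669 in the second. The 2 tables are not mixed in any test. Alternatives used DESeq2 1.42.0, limma 3.58.1 on log2 FPKM, other filters and scalings, a replicate block and each library left out.

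All protein-coding and rRNA members are named, and a tRNA member where its mean reached 20 counts or where it passed a printed test. Nuclear genes are from fixed lists: POLRMT, TFAM, TFB2M, LRPPRC, SLIRP, POLG, TWNK, SSBP1, PPARGC1A and ESRRA, and otherwise up to 4 called members per list with the largest change and at least 5 FPKM. The gene set and the lists to report on were chosen with earlier results of these data known, although the rule for the members uses no measured value. Protein sequences are not used here.

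Replicate numbers are shared by all groups in the labels, but the deviations of libraries with the same number from their group means correlated between -0.0442 and 0.0712 in the 20 treatment comparisons, so the numbers were not taken as pairs.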

Additional observations from a re-analysis of the deposited data

Results flagged for a closer look

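Of 14 tests of a difference between treatment effects, 7 called at least 1 of the 15 protein-coding and rRNA genes (edgeR, Benjamini-Hochberg adjustment). Each was singled out because 2 effects of the same treatment differed by that test. The shares of all genes called in these tests stand beside the same results above. In several of the tests a count of 1 among 15 genes is near that share, so the count alone is no result about these genes.

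The HCl effect differed between days 11 and 7 in 6 genes, of which MT-ND1 differed most, with a log2 difference of 1.74 (adjusted p = 7.09e-15). The 2-DG effect differed between these days in 1 gene, again MT-ND1 (1.00, adjusted p = 3.14e-09), and the IWP2 effect in 1 gene, MT-RNR1 (1.05, adjusted p = 6.09e-09).

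MT-RNR1 was also the 1 gene in which the HCl effect differed between days 5 and 3 (-2.13, adjusted p = 0.000177) and the 1 gene in which the NaHCO3 effect did (-1.39, adjusted p = 0.0197). Without HCl replicate 1 of day 3, with 15104 CPM of non-polyadenylated transcripts, the first difference was -1.43 (adjusted p = 0.0012). The NaHCO3 difference passed the adjusted p threshold in 2 of 8 fits with 1 library left out.

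The NaHCO3 effect with IWP2 differed from that without IWP2 in 2 genes on day 7 (MT-RNR2, -1.15, and MT-ATP8, 1.02, or 0.61 without NaHCO3 replicate 1) and in 2 genes on day 11 (MT-RNR1, -1.65, and MT-RNR2, -1.25). Groups of 2 libraries allow no test for a library far from its group.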

How the results depend on the processing

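The 20 counts of protein-coding members called were within 1.5 times of the reported values with DESeq2, no filter, edgeR's filterByExpr, libraries of the same day only and the replicate block. Fits that paired libraries by replicate number (the replicate block) gave 13 genes for HCl and 11 for 2-DG on day 11. Scaling from nuclear genes, library totals and limma with a pseudocount of 1 or 0.1 each gave 1 in place of 2 genes for 2-DG on day 7. Library totals and limma with either pseudocount gave 3 in place of 1 gene for NaHCO3 on day 11. Library totals moved the median of all genes past 0.1 log2 units in 5 of 20 comparisons, to -0.22 for NaHCO3 on day 11. By adjusted p alone the counts were 1 (HCl, day 3), 5 (2-DG, day 3), 5 (HCl, day 5), 1 (NaHCO3, day 5), 2 (NaHCO3 added to IWP2, day 5), 11 (HCl, day 7), 13 (NaHCO3, IWP2, NaHCO3 added to IWP2 and 2-DG, day 7), 12 (NaHCO3, day 11), and 13 (IWP2 and NaHCO3 added to IWP2, day 11). With each library left out, the counts called ranged from 0 to 2 (2-DG, day 3), 2 to 5 (NaHCO3, day 7), 0 to 1 (NaHCO3 added to IWP2, day 7), 1 to 3 (2-DG, day 7), 1 to 2 (NaHCO3, day 11), 1 to 2 (IWP2, day 11) and 1 to 3 (NaHCO3 added to IWP2, day 11). HCl on day 11 stayed at 13 and 2-DG on day 11 at 10 to 11. Among 178 values of single members with an adjusted p below 0.05 in the reported fit, none changed sign under any setting. Values that did not pass there were left out beforehand, so a change of sign was unlikely from the start. Some of the 178 were no longer past their threshold when 1 library was left out, and the cause was not tested. No fold change can be read for the tRNA genes other than MT-TP, at 0 to 7 counts per library.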
